A study of Mus musculus with 3 samples.

Results

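Skeletal muscle fibres and their progenitors form a small population in full-thickness mouse dorsal skin, and 243 such cells were found among 33511 retained cells of 3 single-cell RNA-seq libraries. Retained cells had at least 300 detected genes and no more than 10% mitochondrial UMIs (unique molecular identifiers, each marking 1 captured transcript). Progenitors were cells with a UMI in at least 3 of 6 genes, Pax7, Myod1, Myf5, Cdh15, Chodl and Chrna1, and there were 32. Muscle cells held at least 2% of their UMIs in the sum of Acta1, Ckm, Tnnt3, Mylpf and Myl1, and there were 211. Both sets also had 0 UMIs of Ptprc, the pan-leukocyte surface phosphatase, and 0 cells met both definitions. The members were thus chosen by measured values of these 12 genes, so high levels of those genes describe the selection and are not a finding.

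The skin came from wild-type C57BL/6J mice, labelled female and listed as 8 weeks old where their supplier is named, and their age when skin was taken is not given in the sources used here. CON skin was not irradiated, UV skin was exposed on alternate days over 12 weeks to UVA at 0.60 and UVB at 3.5 mW/cm2 together, and Rux skin received the same irradiation followed each time by an ointment with 1.5% ruxolitinib, an inhibitor of the kinases JAK1 and JAK2. Per the study's methods and legends CON and UV skin received the vehicle ointment, and skin was taken 24 h after the last exposure. Each condition is 1 library, and how many mice went into it is not given in the sources used here, so no comparison below has a replicate check, a test or a p-value. Intervals are exact 95% intervals and cover counting error only. The Y-linked gene Ddx3y gave 28, 7 and 5 UMIs in the progenitors and 32, 6 and 6 in the muscle cells of CON, UV and Rux, and Xist, the transcript of the inactive X chromosome, gave 0, which goes against the female label in all 3 libraries.

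Mouse skin lies on the panniculus carnosus, a thin sheet of striated muscle that moves the skin. Its fibres are long cells with many nuclei, packed with sarcomeres in which myosin motors pull on actin filaments when calcium leaves the sarcoplasmic reticulum. Satellite cells, the resident stem cells of muscle, lie against the fibres, carry the transcription factor Pax7 and turn on Myod1 and later Myog when they are called to divide and form new muscle. Intact fibres are far longer than a droplet, so a barcode with fibre transcripts may hold a fragment, a small cell or a fused cell, and these libraries do not tell them apart.

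Muscle genes share short promoter sequences that are bound by muscle regulators. The 250 bases before the start sites of Acta1, which encodes skeletal actin, of the fast myosin genes Myh4 and Myh1, and of Trim63, a ubiquitin ligase of wasting muscle, are shown because the results below turn on these genes. Sequences are from RefSeq on GRCm38.p6. Capitals mark matches to a CArG box, a MEF2 box, the E-box CAGCTG, which reads the same on both strands, or the forkhead motif TGTTTAC, each searched on both strands, and no marked matches overlap. The windows are chr8:123894776-123895025 on the minus strand for Acta1, chr11:67237562-67237811 on the plus strand for Myh4, chr11:67199852-67200101 on the plus strand for Myh1 and chr4:134314870-134315119 on the plus strand for Trim63.
Acta1: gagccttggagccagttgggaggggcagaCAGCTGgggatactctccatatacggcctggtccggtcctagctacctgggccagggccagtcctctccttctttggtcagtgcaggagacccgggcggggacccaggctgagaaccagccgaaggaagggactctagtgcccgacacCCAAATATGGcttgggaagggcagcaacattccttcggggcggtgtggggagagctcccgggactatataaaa
Myh4: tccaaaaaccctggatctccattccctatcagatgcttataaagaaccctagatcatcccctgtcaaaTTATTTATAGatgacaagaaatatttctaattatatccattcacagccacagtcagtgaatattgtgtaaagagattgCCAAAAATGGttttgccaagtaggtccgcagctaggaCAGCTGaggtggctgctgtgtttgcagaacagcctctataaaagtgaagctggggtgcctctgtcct
Myh1: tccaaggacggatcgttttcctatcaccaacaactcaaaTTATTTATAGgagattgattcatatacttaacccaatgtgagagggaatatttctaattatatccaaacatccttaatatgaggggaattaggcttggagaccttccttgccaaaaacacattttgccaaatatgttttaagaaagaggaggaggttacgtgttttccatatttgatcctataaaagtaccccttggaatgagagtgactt
Trim63: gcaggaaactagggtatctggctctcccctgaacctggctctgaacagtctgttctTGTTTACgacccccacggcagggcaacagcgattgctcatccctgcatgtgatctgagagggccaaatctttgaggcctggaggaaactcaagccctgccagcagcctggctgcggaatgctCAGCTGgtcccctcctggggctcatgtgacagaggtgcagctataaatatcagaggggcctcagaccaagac

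In the Acta1 window the CArG box lay 73 to 64 bases before the start site and the E-box 221 to 216 bases before it. The Myh4 window held a CArG box at 104 to 95 bases, an E-box at 67 to 62 bases and a MEF2 box on the reverse strand at 182 to 173 bases. In the Myh1 window only a MEF2 box was matched, on the reverse strand at 211 to 202 bases. Trim63 had the forkhead motif at 194 to 188 bases and an E-box at 72 to 67 bases. Of the 5 muscle rule genes and the 12 leading muscle genes described below, 10 of 17 had a RefSeq window (11 windows), and 7 of these 11 windows (63.6%) held CAGCTG, against 13.0% of all 32851 windows. A CArG box was in 2 of the 11 (18.2%, against 1.47% of all windows), a MEF2 box in 3 (27.3%, against 1.69%) and TGTTTAC in 0 (against 3.17%). For the progenitor rule and leading genes, 12 of 18 genes matched 15 windows, of which 2 (13.3%) held CAGCTG, 1 (6.67%) a CArG box and 1 (6.67%) a MEF2 box. A match says only that these letters occur in the window.

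Fewer cells of both kinds were captured from the irradiated libraries. CON gave 20 progenitors among 12039 retained cells (0.166%, interval 0.102 to 0.256), UV gave 7 of 11331 (0.0618%, 0.0248 to 0.127) and Rux gave 5 of 10141 (0.0493%, 0.0160 to 0.115). The CON interval overlapped both others. Muscle cells numbered 151 in CON (1.25%, 1.06 to 1.47), 17 in UV (0.150%, 0.0874 to 0.240) and 43 in Rux (0.424%, 0.307 to 0.571). These 3 intervals did not overlap each other, with CON highest, UV lowest and Rux between. Fewer muscle cells in the skin, a different depth of excision and fewer fibre pieces released or kept during dissociation cannot be told apart here. The order CON, Rux, UV for muscle cells was the same when the muscle genes had to reach 5% or 1% of UMIs.

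**Figure D1:**
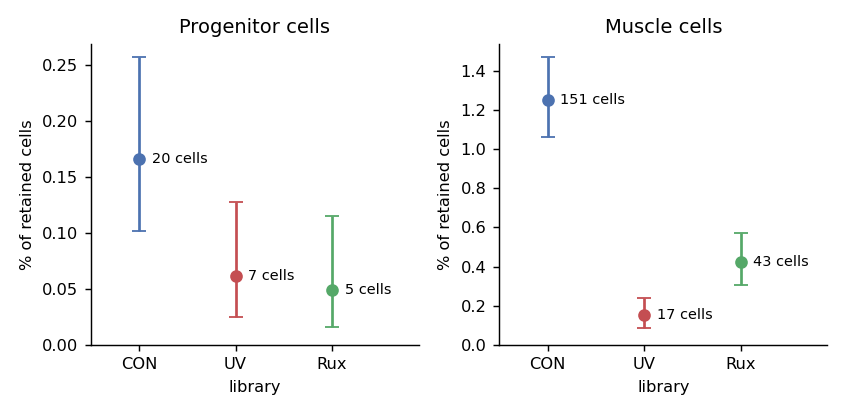
Share of retained cells that met the progenitor definition (left) and the muscle definition (right), in percent, in the CON, UV and Rux libraries; points are shares, bars are exact 95% binomial intervals and the labels give cell numbers. Muscle cells made up 1.25% of CON, 0.150% of UV and 0.424% of Rux cells, and the progenitor intervals overlap.

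The muscle definition met a sparse zone of the data. The lowest muscle members had 2.23% (CON), 2.27% (UV) and 3.79% (Rux) of their UMIs in the 5 genes, and the highest cells without Ptprc UMIs left outside had 1.88%, 1.69% and 1.40%. The median member had 11.5%, 14.3% and 13.2%. The progenitor limit was less clear: 24 progenitors had exactly 3 of the 6 genes, 8 had 4, none had 5 or 6, and just outside it 41, 18 and 9 cells of CON, UV and Rux had exactly 2. A further 1, 1 and 0 cells met the progenitor definition and 8, 1 and 0 the muscle definition but had too few genes or too many mitochondrial UMIs. UMIs of Ptprc kept out 1, 0 and 0 cells that otherwise met the progenitor definition and 5, 1 and 1 that met the muscle definition.

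Depth differed little between libraries for progenitors and more for muscle cells. In CON, UV and Rux the median progenitor had 5144, 4528 and 4578 UMIs, and all progenitors summed to 150908, 32468 and 21741 UMIs, and 1 CON cell of 47964 UMIs held 31.8% of the CON sum. Muscle cells had a median of 1497, 2495 and 1632 UMIs and summed to 523423, 71835 and 127869. Scrublet scores marked 2, 0 and 1 progenitors and 13, 0 and 1 muscle cells as likely doublets, which were kept, and 11 of the 13 in CON were among the 19 cells with 2 to 5% muscle UMIs. Of barcode sequences that occurred in a pair of libraries (42 for CON and UV, 27 for CON and Rux, 34 for UV and Rux), 3 belonged to a member in CON or UV and 0 to members of both libraries. In cells without Ptprc UMIs outside the members, the 5 muscle genes held 0.00370%, 0.00132% and 0.00154% of UMIs, and 27.5%, 10.0% and 13.4% of those cells (median 7934, 7877 and 10174 UMIs) had at least 1 such UMI, so a single muscle UMI does not mark a muscle cell.

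All levels below are UMIs of a gene summed over the cells of a library, per 1000000 UMIs of those cells (CPM). With this chemistry each transcript is tagged at 1 end. Ratios are log2 with 0.5 UMI added, for UV over CON and for Rux over UV, and since both use the UV library the 2 ratios of a gene are not independent. A gene was counted in a list when it averaged at least 10 CPM and had at least 20 UMIs in the pair of libraries. Over all genes counted this way, against which list medians can be read, the median ratio was -0.01 for UV over CON and -0.10 for Rux over UV in progenitors, and -0.11 and 0.03 in muscle cells. Median-of-ratios scaling moved the median of all genes for UV over CON from -0.01 to -0.17 in progenitors and from -0.11 to -0.19 in muscle cells. Genes eligible for naming by their ratio averaged 50 CPM or more across both libraries, gave 50 UMIs or more in the pair, and were found in at least 5 cells of the library with the higher level, with no cell holding more than 25% of its UMIs.

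The genes of the definition were detected in the progenitors on few UMIs, so a gene without a UMI in a cell may have been missed, and their counts follow from the selection. Pax7, the satellite cell factor, was detected in 24 of the 32 cells and Myod1, the determination factor, in 18. Both were detected in 11 cells, Pax7 without Myod1 in 13 and Myod1 without Pax7 in 7, and Myog, which marks the step to differentiation, in 0 of 32. Chodl, a membrane lectin, was detected in 29 cells, the cadherin Cdh15 in 18, Myf5 in 12 and the acetylcholine receptor subunit Chrna1 in 3. Pax7 was at 199, 431 and 368 CPM in CON, UV and Rux and Myod1 at 338, 524 and 460.0 CPM. Myf5 rested on 14, 1 and 4 UMIs. The 5 fibre genes of the muscle definition reached at most 0.184%, 0.0414% and 0% of any progenitor's UMIs.

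Genes that the definition did not use also separated progenitors from all other cells in every library. The 12 leading genes were ranked by the lowest of the 3 log2 ratios over the other cells, which ran down from 6.83 for Erfe. Those with known places in muscle and its innervation include Erfe (erythroferrone, a hormone that acts on hepcidin), Asb5, the receptor Fgfr4, Megf10, a receptor of satellite cells, Des (desmin, the muscle intermediate filament), the Notch target Heyl, the acetylcholine receptor subunit Chrnb1 and the neurotrophin Ntf3. Chrdl2, Peg3 and Drp2 were also among the leading genes. Genes that go with the 6 of the definition are in part fixed by it, so these ratios describe the cells and test nothing.

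Erfe was at 490.4, 1294 and 506 CPM in CON, UV and Rux (74, 42 and 11 UMIs). It was highest in UV, and its log2 ratios were 1.41, 95% interval 0.82 to 1.96 for UV over CON and -1.31, 95% interval -2.46 to -0.37 for Rux over UV. In UV 1 cell held 47.6% of the Erfe UMIs, and without it the UV level was 831 CPM and the ratios were 0.78 and -0.68. In single cells the Erfe median was 589, 1104 and 655 CPM and the ranges overlapped. Asb5 was also highest in UV, at 139, 400.4 and 92.0 CPM. Peg3, an imprinted zinc finger gene, was at 212, 246 and 1058 CPM and so highest in Rux, with a Rux over UV ratio of 2.05, 95% interval 0.89 to 3.47. Fgfr4 was at 79.5, 92.4 and 276 CPM, Megf10 at 106, 92.4 and 230.0 CPM, Des at 305, 369.6 and 276 CPM and Heyl at 192, 154 and 92.0 CPM.

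Some satellite cell markers outside the definition were higher in UV than in CON progenitors. Of 20 listed genes 9 could be counted, and 4 of these 9 (Vcam1, Fgfr1, Asb5 and Ncam1) were higher by at least 2-fold and 0 lower, beside 12.9% higher and 18.2% lower among all 1789 genes counted. The list median was 0.83 (all genes -0.01, the same genes in all other cells 0.13). Summed over the list the level was 3916, 7207 and 5519.5 CPM in CON, UV and Rux. With progenitors defined by 2 of the 6 genes the list median was -0.02, and without the CON cells rich in fibroblast or keratinocyte markers, described below, it was 0.37.

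Vcam1, an adhesion molecule of satellite cells, was at 92.8, 462 and 828 CPM on only 14, 15 and 18 UMIs, with a UV over CON ratio of 2.31, 95% interval 1.16 to 3.48. Fgfr1, a receptor for fibroblast growth factors, was at 292, 1170.4 and 414 CPM and was detected in all 7 UV cells, 16 of 20 CON cells and 4 of 5 Rux cells. With each cell thinned to 2500 UMIs these were 5 of 7, 14 of 20 and 3 of 5 cells. The Fgfr1 ratio was 2.01, 95% interval 1.34 to 2.66 for UV over CON and -1.44, 95% interval -2.73 to -0.43 for Rux over UV. In UV 1 cell held 36.8% of the Fgfr1 UMIs, and without it the ratios were 1.72 and -1.15. Fgfr1 was also higher in the other cells of UV and Rux skin (221, 424 and 615 CPM). Ncam1, a neural cell adhesion molecule, was at 616, 1263 and 874 CPM, and Sdc4, a heparan sulphate proteoglycan, at 1392, 2464 and 1518 CPM. Fgfr1, Ncam1 and Sdc4 were highest in UV. For Vcam1 the Rux level was the highest, but 1 cell held 72.2% of its UMIs, and without that cell it was 291 CPM, under that of UV. Calcr, the calcitonin receptor that marks quiescent satellite cells, was at 46.4, 92.4 and 414 CPM, and 1 cell held 88.9% of the Rux UMIs. Only 4 satellite genes could be counted for Rux over UV, with a median of -0.60, 0 higher by 2-fold and 1 lower, beside 13.5% and 15.9% of 422 genes, and the median turned to 1.36 with progenitors defined by 2 of the 6 genes.

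Immediate-early genes, which are transcribed within minutes of a stimulus and also of tissue handling, were lower in UV than in CON progenitors. Of 24 listed genes 21 could be counted, 14 were lower by at least 2-fold and 1 (Ier5) higher, beside 18.2% lower and 12.9% higher of all genes, and the median ratio was -1.48 against -0.19 for the same genes in other cells. Their summed level was 19727, 8254 and 16605 CPM in CON, UV and Rux progenitors, beside 14848, 12796 and 13936 CPM in the other cells. Single cells showed that few cells carried the sum. In CON the share of a cell's UMIs in these genes ran from 0.324% over a median of 1.12% to 7.64%, in UV from 0.418% over 0.798% to 1.30%, and in Rux from 0.219% over 1.14% to 4.92%. The ranges overlapped, 4 CON cells between 5.49% and 7.64% held 57.2% of the CON immediate-early UMIs, and 1 Rux cell held 57.3% of the Rux ones.

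**Figure D2:**
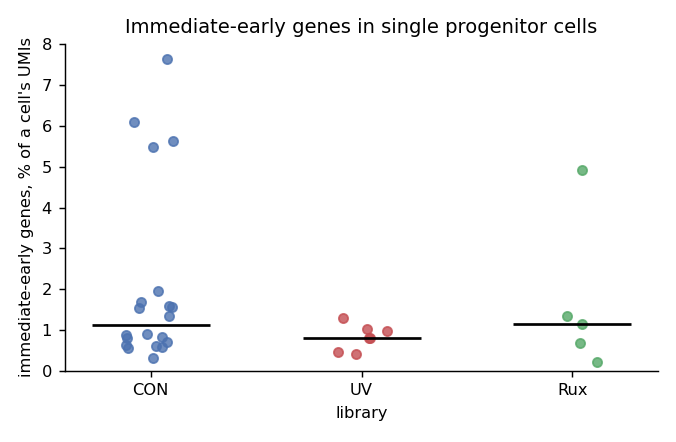
Share of each progenitor's UMIs in 24 immediate-early genes, in percent, by library; each point is 1 cell and the line is the median. Medians were 1.12%, 0.798% and 1.14% in CON, UV and Rux, with 4 CON cells and 1 Rux cell well above the rest.

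Fos, a subunit of the AP-1 factor, was at 2730.1, 647 and 2898 CPM in CON, UV and Rux (412, 21 and 63 UMIs). Its UV over CON ratio was -2.05, 95% interval -2.79 to -1.45, and 1 cell held 88.9% of the Rux UMIs. Egr1, a zinc finger factor of the same early wave, was at 2889, 801 and 1886 CPM, with a UV over CON ratio of -1.83, 95% interval -2.48 to -1.28 (-0.89, under 2-fold, when cells of 200 or more genes and up to 20% mitochondrial UMIs were kept), and the median cell had 1656, 866 and 1092 CPM. Junb was at 2717, 678 and 1609.9 CPM (-1.97 for UV over CON), Jun at 1564, 339 and 1104 CPM (-2.15) and Atf3 at 543, 92.4 and 230.0 CPM (-2.34). The lowest ratio among the genes eligible for naming was that of Gadd45b, a stress-induced regulator, at 954, 154 and 276 CPM (-2.50, 95% interval -4.28 to -1.38). Btg2, an antiproliferative gene, was at 835, 185 and 322 CPM and the ubiquitin ligase Arih1 at 616, 154 and 322 CPM (-1.87).

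Some early genes did not follow. Fosb was at 1080.1, 1047 and 2622 CPM, a UV over CON ratio of -0.03, and Ier5 was higher in UV at 133, 524 and 322 CPM. In Rux over UV 9 genes of the list could be counted, 5 (Fos, Jun, Fosb, Junb and Egr1) were higher by 2-fold and 0 lower, and the median was 1.23. Defining progenitors by 2 of the 6 genes brought the list median to -0.30 for UV over CON and to 0.056 for Rux over UV, and for UV over CON it brought Jun to 0.02, Junb to -0.94, Btg2 to -0.47 and Arih1 to -0.30, all under 2-fold. Dissociation time and handling per library were not given in the sources used here, and their part in these levels was not tested.

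Antioxidant genes, many of them targets of the stress factor NRF2, went both ways. Among the 17 of 22 listed genes counted for UV over CON, 4 (Txnrd1, Gclm, Srxn1 and Slc7a11) were higher by 2-fold and 1 lower, beside 12.9% and 18.2% of all genes. The list median of 0.02 turned to -0.14 with median-of-ratios scaling and to -0.52 without the largest cell of each library. It was 0.66 with 4 of the 6 progenitor genes required. Txnrd1, thioredoxin reductase, was at 278, 2433 and 230.0 CPM in CON, UV and Rux (42, 79 and 5 UMIs) and was detected in 16 of 20, 6 of 7 and 2 of 5 cells. The median cell had 284, 2320 and 0 CPM, 1 UV cell held 43.0% of the UV UMIs, and the ratios were 3.12, 95% interval 2.57 to 3.70 for UV over CON and -3.27, 95% interval -5.07 to -2.12 for Rux over UV (2.51 and -2.67 without that cell). The other cells had 208, 395 and 243 CPM. Srxn1, sulfiredoxin, was at 113, 524 and 46.0 CPM, and Gclm, a subunit of the glutathione-making ligase, was at 72.9, 462 and 0 CPM, with 15 UMIs in UV against 0 in Rux, at least 3.35-fold lower in Rux against the level of 3 UMIs (2.30-fold without the UV cell that held 46.7% of them).

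The metal-binding metallothioneins were abundant among them. Mt1 was at 8707, 4928 and 2299.8 CPM, with ratios of -0.82 for UV over CON and -1.09 for Rux over UV. In UV 1 cell held 39.4% of the Mt1 UMIs, and without it the Rux over UV ratio was -0.73, under 2-fold. Without the CON cell with most Mt1 UMIs the UV over CON ratio was -1.18. The median cell had 10491, 3512 and 1908 CPM of Mt1. The cell ranges of Mt1 overlapped between all libraries. Mt2 was at 5971, 5389.9 and 2622 CPM, Gpx3, extracellular glutathione peroxidase, at 1279, 2372 and 3128 CPM and Fth1, ferritin heavy chain, at 3300.0, 3326 and 2392 CPM. Of 7 genes of the list counted for Rux over UV, 3 were lower by 2-fold and 0 higher, beside 15.9% and 13.5% of all genes. The list median was -0.47, or -1.03 over genes of at least 50 CPM and 50 UMIs.

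Inflammatory signals and the JAK-STAT pathway, the target of ruxolitinib, rested on few genes in progenitors. Ccl2, a monocyte-attracting chemokine, was at 663, 2341 and 1702 CPM in CON, UV and Rux, beside 521, 1284 and 2047 CPM in the other cells, with a UV over CON ratio of 1.82, 95% interval 1.37 to 2.27. In UV 1 cell held 42.1% of the Ccl2 UMIs, and without it the ratio was 1.41. With each cell thinned to 2500 UMIs, 8 of 20 CON, 3 of 7 UV and 4 of 5 Rux progenitors had a Ccl2 UMI. The related Ccl7 was at 92.8, 647 and 276 CPM, Cxcl1, which attracts neutrophils, at 1352, 1509 and 966 CPM and Nfkbia, the NF-kB inhibitor, at 1498, 1725 and 1839.8 CPM. Among the 11 of 26 listed genes counted for UV over CON, 3 (Ccl2, Ccl7 and Cxcl2) were higher by 2-fold and 3 lower, beside 12.9% and 18.2% of all genes. The median was 0.17, and the same genes had 0.89 in the other cells. Between Rux and UV 2 of 5 counted were lower and 0 higher, beside 15.9% and 13.5% of all genes, and the median was -0.62, or 0.44 with progenitors defined by 2 of the 6 genes.

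Among the 11 of 31 JAK-STAT genes counted in progenitors, 1 was higher and 4 lower for UV over CON, beside 12.9% and 18.2% of all genes, with a median of -0.38 (-1.03 over genes of at least 50 CPM and 50 UMIs, -1.16 with 4 of the 6 genes required). Socs3, the feedback inhibitor of these kinases, was at 530.1, 123 and 184 CPM, Cebpd, a STAT3 target, at 908, 431 and 460.0 CPM, Stat3 at 398, 308 and 276 CPM, Jak1 at 225, 308 and 368 CPM and Il6st, the shared receptor gp130, at 232, 339 and 460.0 CPM. Socs3, Cebpd and Stat3 were highest in CON, and Jak1 and Il6st in Rux. Only 3 genes of the list could be counted for Rux over UV, with 1 higher and 0 lower, beside 13.5% and 15.9% of all genes. The list median was 0.45, or -0.45 with progenitors defined by 2 of the 6 genes. Interferon-response and MHC class I genes had 0 of 5 past 2-fold for UV over CON (median 0.18), and for Rux over UV 1 of 3 was lower, Ifitm3, an antiviral membrane protein, at 815, 1201 and 322 CPM. Heat shock chaperones had 0 genes past 2-fold in either comparison, with medians of 0.21 over 8 genes and -0.16 over 5, and the chaperones Hsp90ab1 (1551, 2033 and 1564 CPM) and Hspa8 (901, 986 and 874 CPM) were among those counted.

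Notch genes, which hold satellite cells in quiescence, could be counted for 4 of 15 genes in UV over CON, with a median of 0.27. By 2-fold 1 (Rbpj) was higher and 1 (Hes1) lower, beside 12.9% and 18.2% of all genes. Rbpj, the DNA-binding partner of Notch, was at 119, 277 and 276 CPM, its target Hes1 at 252, 92.4 and 92.0 CPM and the receptor Notch3 at 152, 246 and 92.0 CPM. Musk, the synaptic receptor kinase, was at 92.8, 30.8 and 460.0 CPM. The 20 cell cycle genes summed to 1034, 216 and 92.0 CPM. For UV over CON 0 of the 2 genes counted were higher and 1 lower, beside the same shares of all genes. Ccnd2, cyclin D2, had 67, 0 and 0 UMIs, 80.6% of the CON ones in 1 cell, and was at least 4.81-fold lower in UV against the level of 3 UMIs (1.37-fold without that cell). All 12 Mki67 UMIs came from 1 CON progenitor, the cell of 47964 UMIs.

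Among genes of 50 CPM and more that did not rest on 1 cell, the highest UV over CON ratios were those of Crip1, a LIM domain protein, at 550.0, 1417 and 506 CPM (1.37, 95% interval 0.81 to 1.90), and Trib1, a pseudokinase, at 239, 554 and 598 CPM (1.24). The noncoding transcript AY036118 was at 1551, 3018 and 2116 CPM and Gnas, the stimulatory G protein subunit, at 1869, 3018 and 2392 CPM. Among the lowest ratios for Rux over UV were again that of Crip1 (-1.44) and those of 6 ribosomal protein genes, from Rps2 (-0.80) to Rpl32 (-0.53), of which Rps25, Rps19, Rpl18 and Rps15a turned positive with progenitors defined by 2 of the 6 genes. With progenitors defined by 2 of the 6 genes the Crip1 ratios turned to -0.53 for UV over CON and 1.03 for Rux over UV, and for UV over CON AY036118 turned to -0.52 and Gnas to -0.06. Without the CON cells rich in fibroblast or keratinocyte markers, the UV over CON ratio was 0.16 for Trib1, 0.06 for AY036118 and 0.01 for Gnas. Igfbp5, an IGF-binding protein of satellite cells, was at 59.6, 955 and 460.0 CPM on 9, 31 and 10 UMIs, of which 1 cell held 51.6% in UV and all 10 in Rux.

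Matrix genes stood lower in UV than in CON progenitors, and markers of other skin cells moved with them. Among the 24 of 30 counted genes 16 were lower by 2-fold and 0 higher, beside 18.2% and 12.9% of all genes, median -1.80 (-1.16 with genes at 0 UMIs set to their bound against 3 UMIs, and 14 lower). Collagen Col3a1 was at 1590.4, 92.4 and 92.0 CPM, and 1 cell held 83.8% of the CON UMIs. Decorin, Dcn, was at 1763, 246 and 184 CPM and Col1a2 at 1100.0, 308 and 322 CPM. The 7 fibroblast markers summed to 6328, 1109 and 828 CPM in CON, UV and Rux (955, 36 and 18 UMIs, 7, 6 and 5 genes detected), led by Dcn in CON and by Col1a2 in UV and Rux, with Pdgfra at 0 in UV and Rux and Lum at 0 in Rux. The 7 keratinocyte markers summed to 2511, 246 and 368 CPM (379, 8 and 8 UMIs, 7, 3 and 5 genes detected), led by Krt14 in CON and UV and Krt5 in Rux, with Krt15, Krt10, Krt1 and Perp at 0 in UV and Krt10 and Perp at 0 in Rux. In CON 1 cell held 54.8% of the fibroblast and 1 cell 54.6% of the keratinocyte UMIs.

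Cells with 0.5% or more of either marker set numbered 8 of 20 in CON (66.9% of CON UMIs) and 0 in UV and Rux, and without them the matrix median was 0.29 and that of muscle growth and atrophy genes, -1.35 over 7 genes (1 higher and 4 lower), was 0.37. The immediate-early median was -1.78 without these cells. Markers of endothelium gave 1 UMI in each library, immune markers 4, 0 and 1, melanocyte markers 13, 4 and 1, Schwann cell markers 13, 3 and 2 and haemoglobins 1, 1 and 2. Sebocyte and adipocyte markers gave 70, 3 and 3 UMIs, led by Mgst1, with Adipoq, Plin1 and Car4 at 0 in all. Few fibre genes could be counted in progenitors. For UV over CON these were 4 sarcomere genes (0 higher, 3 lower, median -1.34) and 5 energy genes (0 higher, 1 lower, 0.49). Also counted were 2 junction genes (1 higher, 0 lower), 1 coupling gene and 1 myogenic gene, the last pair within 2-fold. The sarcomere median was -3.97 with progenitors defined by 2 of the 6 genes and -2.61 by 4. All counts of this paragraph can be read beside the shares of all genes. These were 12.9% higher and 18.2% lower for UV over CON, and 13.5% and 15.9% for Rux over UV. Between Rux and UV both energy genes counted were lower, 0 of 2 junction genes and 0 of 1 coupling genes passed 2-fold, and of 2 growth and atrophy and 2 matrix genes 1 was higher and 1 lower in each list. In Rux Lama2, the laminin chain of the muscle basement membrane, was at 1609.9 CPM, against 451 in CON and 277 in UV.

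The muscle cells of all 3 libraries carried the genes of fast-twitch fibres. Of the 5 genes that chose them, Acta1 was at 33389.8, 55850.2 and 52507 CPM in CON, UV and Rux, the fast troponin T gene Tnnt3 at 26145, 31865 and 33644 CPM, the regulatory light chain Mylpf at 22592, 23359 and 16173 CPM, the essential light chain Myl1 at 16337, 17136 and 18339 CPM and muscle creatine kinase, Ckm, at 16222, 19698 and 19598 CPM. Within the sum of the 5, Acta1 made up 29.1%, 37.8% and 37.4% and Mylpf 19.7%, 15.8% and 11.5%. In the other cells Acta1 made up 29.5%, 20.3% and 28.7% and Mylpf 23.97%, 35.7% and 18.7% of the sum of the 5, and where those UMIs came from was not tested.

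The 12 leading muscle genes, ranked as for the progenitors, exceeded the other cells by log2 ratios of at least 10.81 (Pvalb) to 11.81 (Sln) in every library. They included the fast troponins Tnnc2 (25597, 30737 and 28584 CPM) and Tnni2 (21634, 22524 and 25331 CPM), the Z-disc proteins Tcap (5678, 7183 and 7688 CPM), Myoz1 (2510.4, 2854 and 2682 CPM) and Myot (546, 515 and 704 CPM), and fast myosin-binding protein Mybpc2 (1185, 1128 and 1298 CPM). Cox6a2, the muscle form of a respiratory chain subunit, was at 1838, 2032 and 2338 CPM and the glycolytic enzyme Pgam2 at 2002, 2269 and 1814 CPM. Sarcolipin, Sln, which restrains the calcium pump, was at 269, 97.4 and 93.8 CPM (141, 7 and 12 UMIs).

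Sarcomere genes outside the definition differed little as a set. Among the 30 of 37 listed genes counted for UV over CON, 5 were higher by 2-fold and 1 lower, beside 6.02% and 17.2% of 3407 genes counted, with a median of 0.26 (all genes -0.11). For Rux over UV 1 of 25 was higher and 3 lower, beside 8.91% and 6.95% of 1122 genes, with a median of 0.10 (all genes 0.03). The summed level was 105028, 124048 and 122008 CPM in CON, UV and Rux, against 1040.4, 585 and 414 CPM in progenitors. Tropomyosins Tpm1 (18528, 23429 and 20357 CPM) and Tpm2 (14304, 18487 and 20380.2 CPM) were among the most counted.

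The myosin heavy chain genes, which set the speed of a fibre, differed in their proportions. Myh4 (fast IIb myosin) had 895, 75 and 329 UMIs in CON, UV and Rux, Myh1 (fast IIx) 145, 93 and 27, Myh2 (fast IIa) 9, 0 and 0 and Myh7 (slow) 0 in all. Myh4 thus made up 85.3%, 44.6% and 92.4% of the UMIs of these 4 genes and Myh1 13.8%, 55.4% and 7.58%. As levels Myh4 was at 1709.9, 1044 and 2573 CPM and Myh1 at 277, 1295 and 211 CPM. The Myh1 ratio was 2.23, 95% interval 1.83 to 2.61 for UV over CON and -2.60, 95% interval -3.29 to -1.98 for Rux over UV, and that of Myh4 was -0.70, 95% interval -1.07 to -0.37 and 1.29, 95% interval 0.94 to 1.68. In Rux 1 cell held 26.4% of the Myh4 UMIs, and without it the Rux over UV ratio was 0.88, under 2-fold, which leaves 0 counted sarcomere genes outside the definition higher by 2-fold for Rux over UV.

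Single cells mostly carried 1 myosin. Of cells with at least 3 myosin UMIs (67, 11 and 21), 58, 8 and 20 had at least 80% of them from 1 gene. The leading gene was Myh4 in 51, 6 and 18 cells, Myh1 in 15, 5 and 3 and Myh2 in 1, 0 and 0. Myosin UMIs were absent from 41, 4 and 10 cells. The UV figures rest on 11 cells, and 1 cell held 28.0% of the UV Myh1 UMIs, so the sampling of a few fibres and a difference between skins cannot be told apart. Myh1 and Myh4 lie next to each other at chr11:67200052-67224575 and chr11:67238029-67260446 (mm10, GENCODE annotation), and their start-site windows shared the MEF2 box but only Myh4 had a CArG box and CAGCTG, as printed above, where RefSeq and GENCODE place the start sites at different bases.

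**Figure D3:**
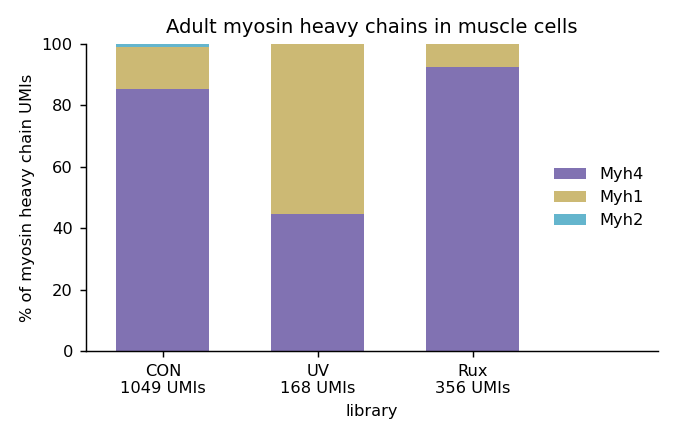
Share of adult myosin heavy chain UMIs in muscle cells that came from Myh4, Myh1 and Myh2, in percent, by library, with UMI totals under the bars; Myh7 had 0 UMIs. Myh4 made up 85.3% of 1049 UMIs in CON, 44.6% of 168 in UV and 92.4% of 356 in Rux, and Myh1 most of the rest.

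The other sarcomere genes higher by 2-fold for UV over CON were Csrp3, Nrap, Myoz2 and Mybph. Csrp3, muscle LIM protein, was at 160.5, 1253 and 172 CPM (84, 90 and 22 UMIs), with ratios of 2.96, 95% interval 2.52 to 3.41 for UV over CON and -2.84, 95% interval -3.61 to -2.18 for Rux over UV, and 1 cell held 53.3% of the UV UMIs. Without that cell the Csrp3 ratios were 2.06 and -1.93. Csrp3 was detected in 29 of 151, 10 of 17 and 8 of 43 cells. Nrap, an actin-anchoring protein of growing myofibrils, was at 168, 515 and 352 CPM (1.63 for UV over CON), Myoz2 at 65.0, 209 and 23.5 CPM and Mybph at 34.4, 97.4 and 23.5 CPM. Cryab, a small heat shock protein that protects desmin and actin, was at 1612, 2673 and 1103 CPM, with a Rux over UV ratio of -1.28, 95% interval -1.60 to -0.96 (-0.81 when each cell had equal weight). The Cryab ratio for UV over CON was 0.73, and the other cells had 36.2, 130.4 and 149 CPM. By summed CPM Csrp3, Nrap, Myoz2, Mybph and Cryab all stood highest in UV. However, 1 UV cell held 29.7% of the Nrap UMIs, and without it the UV over CON ratio was 1.31. With each muscle cell thinned to 500 UMIs, Nrap was detected in 9.93%, 11.8% and 23.3% of CON, UV and Rux cells, and so most often in Rux. The Rux level of Myoz2 and Mybph, 23.5 CPM, is that of 3 UMIs. Xirp2, a repair-associated actin binder, was at 1328, 1712 and 907 CPM and Lmod2, which elongates thin filaments, at 378, 724 and 985 CPM.

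The highest Rux over UV ratio among the muscle genes eligible for naming was that of Trim63, from the growth and atrophy list. Trim63 (MuRF1, a ubiquitin ligase that marks sarcomere proteins for the proteasome) had 45, 6 and 83 UMIs in CON, UV and Rux, or 86.0, 83.5 and 649 CPM. Rux stood above both other libraries, with ratios of 2.85, 95% interval 1.78 to 4.45 for Rux over UV and 0.06, 95% interval -1.56 to 1.19 for UV over CON. In UV 1 cell held 3 of the 6 UMIs, and without it the level was 43.2 CPM and the UV over CON ratio -0.79. It was detected in 31 of 151 (20.5%), 4 of 17 (23.5%) and 28 of 43 (65.1%) muscle cells and in 1.59%, 0.442% and 0.436% of the other cells (median 7790, 7765 and 9651 UMIs). With each muscle cell thinned to 500 UMIs, 4, 1 and 11 cells had a Trim63 UMI (2.65%, 5.88% and 25.6%, interval of the last 13.5 to 41.2). The ratio for Rux over UV lay between 2.59 and 2.92 in all alternatives run.

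Fbxo32 (atrogin-1), the ligase usually induced together with Trim63, was at 53.5, 97.4 and 352 CPM (28, 7 and 45 UMIs), with ratios of 1.77, 95% interval 0.69 to 3.25 for Rux over UV and 0.94, 95% interval -0.57 to 2.09 for UV over CON. It was detected in 10.6%, 23.5% and 39.5% of muscle cells, and in 15.5%, 13.2% and 14.5% of the other, deeper cells, so its detection in CON was no higher than in those. For UV over CON 11 of 19 listed genes were counted, with 1 higher and 5 lower, beside 6.02% and 17.2% of all genes. The median was -0.30, and -1.18 with a muscle limit of 5%. For Rux over UV 7 were counted, 3 (Trim63, Fbxo32 and Cdkn1a) higher and 1 lower, beside 8.91% and 6.95% of all genes, median 0.33, which was 1.05 over genes of at least 50 CPM and 50 UMIs. Cdkn1a, the cell cycle inhibitor p21, was at 266, 41.8 and 164 CPM, but 1 cell held 71.4% of the Rux UMIs. Mstn, myostatin, the growth-limiting hormone of muscle, was at 277, 251 and 321 CPM, with intervals that overlapped, and Gadd45b at 376, 139 and 149 CPM. Trim63 and Mstn had 0 UMIs in progenitors.

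**Figure D4:**
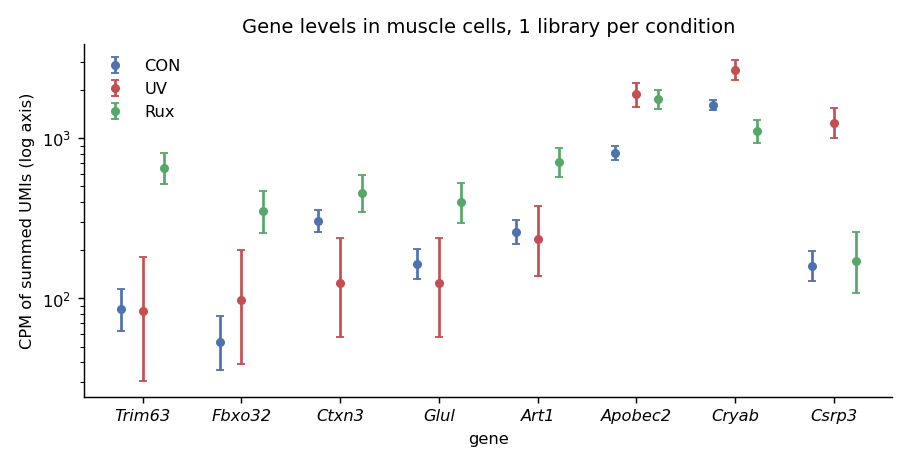
Levels of 8 genes in muscle cells, CPM of summed UMIs on a log axis, in CON, UV and Rux; points are levels and bars exact 95% Poisson intervals, which cover counting error only. Trim63, Fbxo32, Ctxn3, Glul and Art1 were highest in Rux, Apobec2 lowest in CON, and Cryab and Csrp3 highest in UV.

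Further genes with high Rux over UV ratios were Ctxn3, a small membrane protein, at 304, 125 and 454 CPM (1.79, 95% interval 0.83 to 3.06), Glul, glutamine synthetase, at 164, 125 and 399 CPM (1.61), and Art1, a muscle ADP-ribosyltransferase, at 259.8, 237 and 712 CPM (1.55, 95% interval 0.83 to 2.43). Eif4ebp1, which represses cap-dependent translation, was at 143, 209 and 539.6 CPM, the proteasome subunit Psma7 at 355, 223 and 594 CPM and the respiratory subunit Ndufa7 at 459, 223 and 587 CPM. Psmc3, a proteasome ATPase, went the other way, at 208, 404 and 164 CPM (-1.29), as did Ptma, prothymosin, at 1658, 779.6 and 359.7 CPM. In CON the level of Ctxn3, Glul, Art1, Psma7, Ndufa7 and Psmc3 lay between those of UV and Rux.

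Among muscle genes eligible for naming, UV over CON ratios reached at most 1.41, for Mrpl34. Apobec2, a muscle member of the cytidine deaminase family, had 423, 135 and 224 UMIs and was at 808, 1879 and 1752 CPM in CON, UV and Rux, detected in 104 of 151, 16 of 17 and 37 of 43 cells. Both irradiated libraries stood above CON (1.22, 95% interval 0.93 to 1.50 for UV over CON, -0.10, 95% interval -0.42 to 0.22 for Rux over UV), and the other cells had 0.529, 0.533 and 0.481 CPM. Mrpl34, a mitochondrial ribosome protein, was at 80.2, 209 and 117 CPM, Smtnl1, a regulator of contractility, at 105, 251 and 141 CPM and Timp2, a metalloproteinase inhibitor, at 128, 292 and 179.9 CPM, whose UV over CON ratio of 1.21 became -0.057 when the muscle genes had to reach 5% of UMIs.

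The lowest UV over CON ratio among the genes eligible for naming was that of the phosphatase gene Ppm1b, with 54, 0 and 9 UMIs (103, 0 and 70.4 CPM) in 33, 0 and 7 cells, at least 2.47-fold lower in UV against the level of 3 UMIs. Anxa2, an annexin of membrane repair, was at 185, 27.8 and 93.8 CPM. Lgals7, galectin-7 of keratinocytes, was at 653, 153 and 196 CPM in muscle cells and 2267, 1607 and 1684 CPM in the other cells, where it was also lower in UV than in CON. The rest of the 8 lowest were Cdkn1a, with 3 UMIs in UV, and Spcs1, Has1, Mrpl21 and Usf2, with 1 UMI each in UV.

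Energy supply and calcium handling differed in few genes. Among the 22 of 24 energy genes counted, 0 were past 2-fold for UV over CON (median 0.13, or -0.40 with equal weight per cell). For Rux over UV 1 of 15 was higher and 1 lower (median 0.14). The glycolytic enzymes Aldoa (24569, 26129 and 27825 CPM), Gapdh (11096, 12835 and 14194 CPM) and Eno3 (5678, 6250.4 and 6084 CPM) led the list, and Pygm, glycogen phosphorylase, was at 1267, 1030.1 and 1971 CPM (0.93 for Rux over UV). Among the 18 of 21 coupling genes 1 was higher and 1 lower for UV over CON (median 0.11). For Rux over UV 0 of 14 were higher and 1 lower (median -0.14). Of all genes 6.02% were higher and 17.2% lower for UV over CON, and 8.91% and 6.95% for Rux over UV.

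The calcium pump Atp2a1 (SERCA1), which ends a contraction, was lowest in UV, at 9925, 6571 and 11332 CPM, with ratios of -0.59, 95% interval -0.73 to -0.46 for UV over CON and 0.79, 95% interval 0.64 to 0.94 for Rux over UV. Pvalb, the calcium buffer of IIb fibres, was also lowest in UV, at 2761, 1726 and 2471 CPM (-0.67 and 0.51). Cacna1s, the voltage sensor, was at 315, 376 and 156 CPM, Ryr1, the calcium release channel, at 172, 195 and 282 CPM, Trdn, triadin, at 1666, 1350.3 and 1251 CPM and Jph2, which ties the membranes together, at 120.4, 181 and 39.1 CPM. Cacna1s and Jph2 were thus lowest in Rux, and the ratio of Cacna1s for Rux over UV was -1.26.

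Stress and immune genes in muscle cells gave mixed counts, to be read beside the 6.02% higher and 17.2% lower of all genes for UV over CON and the 8.91% and 6.95% for Rux over UV. For UV over CON 5 of 21 immediate-early genes were higher and 3 lower (median -0.05, and -1.01 with a muscle limit of 5%), and for Rux over UV 1 of 15 was higher and 6 lower (median -0.08, and -1.82 without the largest cell of each library). Fos was at 575, 320.2 and 336 CPM, Junb at 566, 264 and 383 CPM and Jun at 361, 334 and 125 CPM. Among the 14 of 31 JAK-STAT genes 1 was higher and 5 lower for UV over CON (median -0.24). Only 3 could be counted for Rux over UV, with 1 higher, 1 lower and a median of 0.15. Stat3 was at 166, 55.7 and 62.6 CPM, Socs3 at 143, 83.5 and 7.82 CPM and Jak1 at 97.4, 251 and 282 CPM, with 77.8% of its Rux UMIs in 1 cell. The Rux level of Socs3 was under the level of 3 UMIs in these cells, 23.5 CPM, so the size of its difference from UV is not given.

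Interferon and MHC class I genes had 0 of 7 higher and 2 lower for UV over CON (median -0.35) and 1 of 5 higher and 1 lower for Rux over UV (median -0.41). Chemokine genes had 2 of 16 higher and 1 lower (median 0.37), then 0 of 7 higher and 1 lower (median -0.16), and with a muscle limit of 5% the medians turned to -0.17 and 0.37. Heat shock genes had 1 of 12 higher and 1 lower (median 0.07), then 0 of 7 higher and 1 lower (median 0.22). Hspb1, a small chaperone, was at 747, 1406 and 1572 CPM and Hsp90ab1 at 1452, 1267 and 1869 CPM. Antioxidant genes had 1 of 16 higher and 0 lower (median 0.18), then 1 of 12 higher and 1 lower (median 0.29). Fth1, the iron store, was at 4566, 8227 and 6804 CPM (0.85 for UV over CON), Mt1 at 1551, 1058 and 2526 CPM and Mt2 at 859.7, 445 and 845 CPM.

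In the Rux muscle cells 1 cell held 82.8% of the matrix UMIs, against at most 18.9% in a CON and 46.3% in a UV cell. For UV over CON 3 of 13 were higher by 2-fold and 3 lower (median 0.22), beside 6.02% and 17.2% of all genes. For Rux over UV 6 of 9 were higher by 2-fold and 0 lower, beside 8.91% and 6.95% of all genes, median 2.26. However, 1 Rux cell held 89.3% of the Col1a1 and 92.1% of the Col1a2 UMIs. Without the largest cell of each library the median was -0.46. Col1a1 was at 275, 334 and 2409 CPM and Col1a2 at 313, 195 and 2870.1 CPM. The 7 fibroblast markers, all detected in each library, summed to 1561, 2144 and 8462 CPM in CON, UV and Rux, led by Dcn in CON and UV and by Col1a2 in Rux, and that Rux cell held 86.3% of the Rux sum. Of the 4 haemoglobin genes, led by Hba-a2 in Rux, 255 UMIs were in Rux muscle cells and 1 cell held 95.3% of them. Keratinocyte markers, led by Krt14, summed to 1830, 473 and 633 CPM, with 7, 6 and 7 of 7 genes detected and Krt1 at 0 in UV. Immune markers gave 28, 8 and 6 UMIs and melanocyte markers 70, 13 and 4, and all 6 endothelial markers were at 0 in Rux (68 and 21 UMIs in CON and UV).

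Genes of developing and regenerating muscle were detected almost entirely in CON. Myh8, the perinatal myosin, had 185 UMIs in 7 CON cells, Myl4, the embryonic light chain, 168 in 17 cells, Actc1, the cardiac actin of young fibres, 65 in 12 cells and Myog 9 in 5 cells. All 4 genes had 0 UMIs in UV, and in Rux Myl4 was in 1 cell and Actc1 in 2. Against the level of 3 UMIs, Myh8 was at least 8.46-fold and Myl4 at least 7.69-fold lower in UV, and Myh8 at least 15.1-fold lower in Rux. In CON 1 cell held 49.2% of the Myh8 and 1 cell 79.2% of the Myl4 UMIs, and without them these bounds were 4.37-fold, 1.67-fold and 7.77-fold. They came from few cells: 8 CON cells with at least 2 of the 4 genes held 79.5% of the Myh8, 91.1% of the Myl4 and 86.2% of the Actc1 UMIs. These 8 cells had a median of 9.43% muscle UMIs and 7418.5 UMIs and made up 5.30% of CON muscle cells (interval 2.31 to 10.2). Such cells numbered 0 of 17 in UV, which allows a share of up to 17.6% at 3 cells (exact upper limit 19.5%), and 0 of 43 in Rux, which allows up to 6.98% (exact upper limit 8.22%), so a difference in their share was not detectable at this depth. Mki67, a proliferation marker, was in 11, 0 and 1 muscle cells and Top2a in 12, 1 and 0, and Tnnt1, slow troponin T, had 59, 0 and 0 UMIs.

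The myogenic list as a whole, which holds these genes, had 2 of 12 counted genes higher and 5 lower for UV over CON. Its median was -0.45, or -0.30 with 4 lower when genes at 0 were set to their bound. For Rux over UV 0 of 4 were higher and 2 lower (median -0.88). The counts of this paragraph can be read beside 6.02% higher and 17.2% lower of all genes for UV over CON. For Rux over UV these shares were 8.91% and 6.95%. Mef2c was at 688, 515 and 321 CPM, Mef2a at 113, 264 and 125 CPM and Bin1, which shapes the T-tubules, at 281, 376 and 438 CPM. Pax7 and Myf5 had 0 UMIs in all 211 muscle cells and Myod1 had 8, in 5 CON cells. Other satellite cell markers had 2 of 6 genes higher and 0 lower for UV over CON (median 0.02, -0.05 with median-of-ratios scaling) and 0 of 2 past 2-fold for Rux over UV. For UV over CON Notch genes had 0 of 3 higher and 2 lower, and the 1 junction gene counted did not pass 2-fold. Cell cycle genes had 0 of 4 higher and 3 lower for UV over CON. Their median was -1.81 (-1.18 with the gene at 0 set to its bound). It was -0.51 with a muscle limit of 1% and -1.21 without the largest cell of each library.

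The muscle barcodes also differed from all others in nuclear and mitochondrial RNA. Malat1, a long noncoding RNA that stays in the nucleus, was looked at after its values had been seen. Its median was 1905, 1691 and 1254 CPM in the muscle cells of CON, UV and Rux, 12991, 19000 and 17896 CPM in the other cells and 21202, 18481 and 20219 CPM in progenitors. At most 3 Malat1 UMIs were found in 57.6%, 47.1% and 69.8% of muscle cells, against 8.26%, 5.71% and 10.7% of other cells with 500 to 3000 UMIs. In the 96, 12 and 30 cells with 10% or more of their UMIs in the muscle genes, 0 of them predicted doublets, the median was 1128, 920 and 683 CPM. Only 19, 4 and 2 cells had 2 to 5%, of which 11, 0 and 1 were predicted doublets, so no trend across that share is given. Mitochondrial UMIs were a median of 0.595%, 0.515% and 0.234% in muscle cells and 3.11%, 3.09% and 2.97% in progenitors. In each library both medians were lower in muscle cells than in progenitors.

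**Figure D5:**
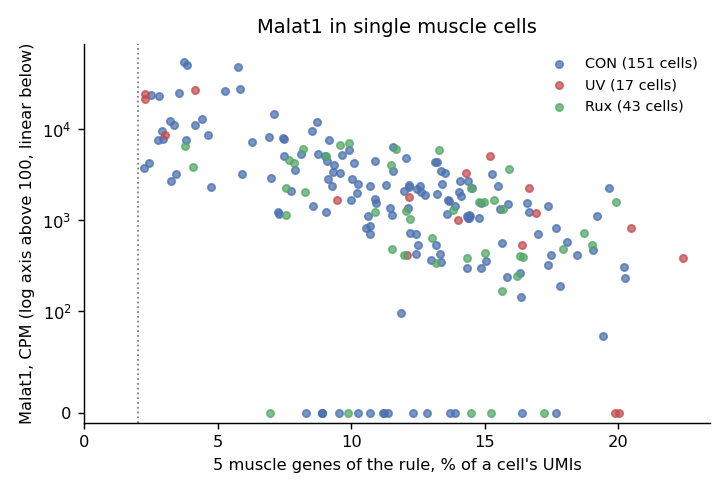
Malat1 in single muscle cells, CPM on an axis that is logarithmic above 100 and linear below, against the share of the cell's UMIs in the 5 genes of the definition, in percent; each point is 1 cell, coloured by library, and the dotted line is the 2% limit. Cells with 10% or more had median levels of 1128, 920 and 683 CPM in CON, UV and Rux, well under the 12991, 19000 and 17896 CPM of the other cells.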

How the data were processed

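Droplet-based 3' single-cell RNA-seq (10x Genomics Chromium, v3.1 chemistry) was made from dorsal skin, with 1 library per condition. The deposited values are counts, unnormalized UMIs of each gene in each cell, which the authors obtained on the mm10 genome. The matrix header names Cell Ranger 7.0.0, whereas the submitters' processing notes name Cell Ranger 6.1.2 and Seurat 5.3.0, and no cell annotation was used. The matrices held 13170, 12411 and 11287 cells of CON, UV and Rux with 165337289, 133972374 and 131570327 UMIs.

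Cells were filtered, selected and summed in Python 3.11.15 (numpy 2.4.6, scipy 1.17.1, pandas 2.3.3), with exact Poisson intervals for levels, Clopper-Pearson intervals for shares and conditional exact intervals for ratios. Scrublet (scanpy 1.11.5) scored doublets at an expected 0.8% per 1000 cells and marked 1233, 1105 and 901 cells, none of which were removed. Because the deposited counts hold 1 library per condition, neither a count model nor any other test was run. The summing and ratio steps were checked on simulated counts.

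The members and the 16 gene lists were chosen with earlier results of these data known. Genes were named if they belonged to the definition, were among 12 leading genes, were among the 8 highest or lowest ratios (at least 50 CPM, 50 UMIs and 5 cells, no cell above 25% of the UMIs), led a list or were fixed fibre and cycle markers. Some genes that met this rule are not reported here. Alternatives changed the cell filter, both definitions, doublets, scaling, cell weights, the added UMI and the minimum level, and 3 were added after seeing the data, which left out the largest cell, cells rich in fibroblast or keratinocyte markers, or the cell with most UMIs of a gene. Another alternative, leaving out cells of both groups, removed 0 cells. Gene positions are from GENCODE (32158 of 32285 identifiers matched). Promoter windows are from RefSeq on GRCm38.p6, the assembly of mm10.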

Additional observations from a re-analysis of the deposited data

How the results depend on the processing

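All values here rest on 1 library per condition. No paired analysis was possible because each condition is 1 library and the groups share fewer than 2 replicate numbers. Of 36 recomputed shares 25 moved by less than their own interval. Of the ratios of single genes 685 stayed inside the gene's own counting interval, 39 moved outside it and 4 that had passed 2-fold changed sign. Such an interval can be wide, so a ratio among the 685 need not be close to the reported value. For UV over CON in progenitors Trib1 fell from 1.24 (interval 0.31 to 2.07) to 0.56 with equal weight per cell and is among the 685. Counting values of any size, 16 of 728 single-gene ratios and 63 of 550 list medians changed sign, 11 and 9 of these with 2 of the 6 progenitor genes and 10 list medians without the fibroblast- or keratinocyte-rich cells. The 728 and 550 include 57 ratios and 46 list medians from leaving out cells of both groups. That setting removed 0 cells, so these values could not change, and the 57 are also among the 685.

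Requiring 4 of the 6 progenitor genes gave progenitor shares of 0.0415% in CON and 0% in Rux, 134 genes higher and 153 lower by 2-fold for UV over CON and a matrix median of -2.81. Requiring 2 of 6 gave shares of 0.507%, 0.221% and 0.138% in CON, UV and Rux, 460 genes higher for UV over CON, medians of -0.30 (immediate-early) and -0.10 (matrix), and, for Rux over UV, 334 genes higher, 730 lower and an immediate-early median of 0.056. With that definition the growth and atrophy median reversed to 0.0058, Jun to 0.02 and Crip1 to -0.53 for UV over CON, and Crip1 to 1.03 for Rux over UV. Of cells with at least 2000 UMIs, each thinned to 2000, 0.0565%, 0.0198% and 0.0108% were progenitors in CON, UV and Rux. Muscle cells were 0.584% (CON) and 0.226% (Rux) of them. Cells under 2000 UMIs were left out of these shares, and the median muscle cell had 1497 (CON) and 1632 (Rux) UMIs. The muscle shares with and without thinning thus cover different cells. The strict cell filter gave a muscle share of 0.979% in CON, and the loose one an immediate-early median of 0.61 in Rux over UV progenitors.

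Genes of at least 50 CPM and 50 UMIs numbered 56 higher and 68 lower for UV over CON and 8 and 13 for Rux over UV in progenitors, and 48 and 166, then 30 and 16, in muscle cells, where for Rux over UV the growth and atrophy median was 1.05 and the matrix median 2.94. Equal weight per cell gave a progenitor matrix median of -0.72 for UV over CON. In muscle cells it gave 366 genes higher for UV over CON, and 166 higher, 121 lower, a growth and atrophy median of 1.01 and a matrix median of 1.18 for Rux over UV. Without the largest cell of each library, UV over CON gave 132 higher, 174 lower and a matrix median of -0.62 in progenitors and 339 lower in muscle cells, and the muscle matrix median for Rux over UV reversed to -0.46.

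Without cells of 0.5% or more fibroblast or keratinocyte UMIs, UV over CON gave 88 higher and 68 lower in progenitors, and the matrix median reversed to 0.29 and the growth and atrophy median to 0.37. In muscle cells the counts were 131 and 372 for UV over CON and 57 and 51 for Rux over UV, with a growth and atrophy median of 0.90 and a matrix median that reversed to -0.15. A muscle limit of 5% gave 112 and 369 for UV over CON and 60 and 31 for Rux over UV, growth and atrophy medians of -1.18 and 0.99, matrix medians of -0.41 and 0.23, and Timp2 reversed to -0.057 for UV over CON. A limit of 1% gave a matrix median of 1.43 for Rux over UV. Removing predicted doublets gave 322 lower for UV over CON in muscle cells and reversed the matrix median for Rux over UV to -0.24. Leaving out the cell with most UMIs of a gene turned Vcam1 from 0.83 to -0.58 for Rux over UV in progenitors. Ratios reported as past 2-fold also fell under it for Crip1 (0.76 with 4 of 6 genes), Trib1 (0.71 with 2 of 6), Smtnl1 (0.55 with equal weight per cell) and Lgals7 (-0.90 with a 1% limit). Other list medians that moved included Notch (-0.38, strict filter) and energy supply (-0.92 with 2 of 6 genes) in progenitors. In muscle cells they included interferon (-1.26 for Rux over UV without doublets) and JAK-STAT (-0.98 over genes of at least 50 CPM and 50 UMIs). For UV over CON in progenitors the sarcomere median was -3.97 with 2 of 6 genes and -2.61 with 4 of 6. The satellite cell median was 2.18 with 4 of 6 genes. In muscle cells the cell cycle median was -0.51 with a 1% limit. The cause of these shifts was not tested beyond the cells or genes each setting removes. With 7 and 5 progenitors and 17 muscle cells, the smallest sets limit every ratio.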
